A study of Homo sapiens with 4 samples.

Results

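The ERBB receptors and the growth factors that bind them were measured by RNA-seq in A549 cells, a human lung adenocarcinoma line. The set holds 10 of the 50868 genes in the count files, taken by gene name: the receptors EGFR, ERBB2 and ERBB3, the ligands AREG, EREG, HBEGF, TGFA, BTC and NRG1, and the receptor inhibitor ERRFI1. There were 4 libraries, 2 labelled control and 2 labelled as overexpressing USP12, a ubiquitin-specific protease. The labels call the control cells only control, and the study names a vector control (EV) for A549 cells and pLVX plasmids for its tagged human USP12. The comparison asks which transcripts differ when USP12 is raised. Nothing in the labels says whether replicates 1 and 2 were separate cultures or whether the cells were a clone, so p-values measure the spread between these libraries, which may be technical.

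The ERBB receptors are tyrosine kinases at the cell surface that signal as pairs after a ligand binds, and they feed the RAS-ERK and PI3K-AKT pathways. EGFR binds AREG, EREG, HBEGF, TGFA and BTC, while NRG1 binds ERBB3 and ERBB4. ERBB2 has no known ligand of its own and acts as a partner, and ERBB3 has little kinase activity and recruits PI3K. The ligands are made as membrane-bound precursors and released by proteases of the ADAM family, and ERRFI1 binds the kinase domain of active EGFR and inhibits it. EGFR is a driver oncogene in lung adenocarcinoma.

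The libraries held 14280081 to 16305356 counts, and 3 counts, taken as the lowest level that can be told from 0, corresponded to 0.166 to 0.227 CPM, a count relative to library size after TMM scaling in edgeR. The intervals and this floor cover counting error only. USP12, the gene that was overexpressed, had 15.2 and 34.4 CPM in control replicates 1 and 2 and 1745 and 2235 CPM in USP12 replicates 1 and 2. Control replicate 1 stood apart: the SD of the log2 ratio over the 15222 genes tested was 1.32 against control replicate 2 and 0.618 between the USP12 libraries, and its column heading carries another date-like prefix. The A549 line has lost CDKN2A, which had 0 counts in all 4 libraries. PTPRC, the pan-leukocyte marker, had at most 1 count, and CD3E, HBB and DCN had 0. The summed levels were 51.5 to 111 CPM for 5 haematopoietic markers, nearly all from CD68 and CD14, and 11.0 to 31.6 CPM for 6 fibroblast and endothelial markers. Within the latter, the endothelial cadherin CDH5 had 10.3 and 5.32 CPM in controls, against 0.144 and 0.346 CPM with USP12, and PECAM1 was also lower in both USP12 libraries (log2 fold change -2.69), while COL1A1 was higher in both (1.10). The part of these markers in the results was not tested. Summed over 5 epithelial markers (KRT8, KRT18, KRT19, EPCAM, CDH1), the level was 9638 and 5060 CPM in controls, against 4275 and 3976 CPM with USP12. Most of this sum was KRT8 and KRT18. CDH1 did not follow it, with 130 and 99.1 CPM in controls, against 76.5 and 134 CPM with USP12. A sum over 6 redox markers (NQO1, GCLM, AKR1B10, AKR1C1, ALDH1A1, TXNRD1) was 7536 and 9498 CPM in controls, against 9028 and 8563 CPM with USP12. Its genes differed in direction. NQO1 was lower with USP12 (1421 and 1344 CPM in controls, against 960 and 911 CPM). AKR1C1 was higher (522 and 505 CPM in controls, against 686 and 663 CPM), and the other genes of this sum overlapped between groups.

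All 10 genes passed the filter on low counts and were tested. No gene of the 10 had an adjusted p under 0.05 in edgeR's quasi-likelihood test, where the share over all tested genes was also 0%, and 2 of them, NRG1 and ERBB3, had an unadjusted p under 0.05 (1155 of all 15222 genes did). Over all genes, edgeR's exact test called 262 lower (1.72%) and 167 higher (1.1%) at adjusted p below 0.05, the replicate block 251 (1.65%) and 153 (1.01%), and the DESeq2 Wald test 273 (1.79%) and 133 (0.874%), none of them from these 10. The study took genes as lower where p was at most 0.05 and the log2 fold change at most -1. With this size criterion applied here to the unadjusted p and in both directions, ERBB3 was lower and NRG1 was higher, against a background of 4.41% of tested genes lower and 2.92% higher. In 5 of the 10 genes the USP12 libraries did not overlap with the control libraries, 3 lower (ERBB2, ERBB3, ERRFI1) and 2 higher (EGFR, NRG1), where 36.5% of all tested genes did not overlap. At 2 against 2 libraries, exact permutation of a single gene cannot give a two-sided p below 0.333. The median log2 fold change of the 10 genes was -0.53, beside -0.06 over all tested genes. For AREG, EREG, TGFA, HBEGF and BTC the sign depended on which control library was used. The median is therefore not read as a shift of the family.

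**Figure D1:**
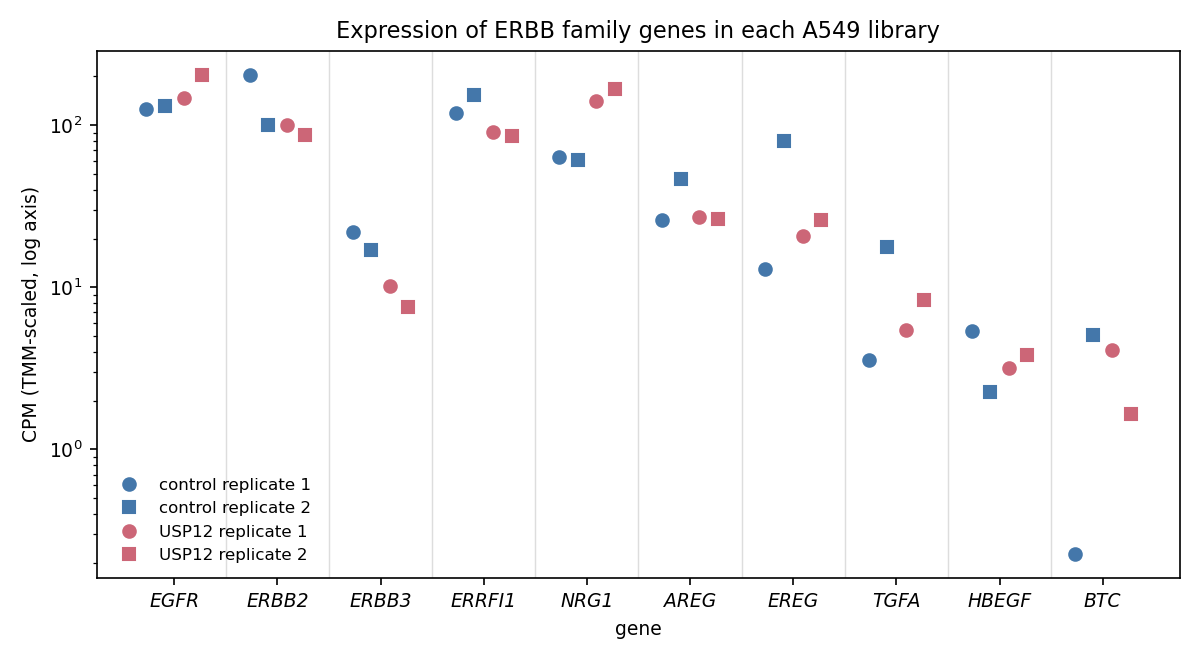
Expression of each of the 10 genes in CPM (log axis) in each library, with control libraries in blue, USP12 libraries in red, circles for replicate 1 and squares for replicate 2. EGFR, ERBB2, ERBB3, ERRFI1 and NRG1 have no overlap between blue and red points, while BTC, EREG and TGFA have the widest gaps between the blue points, from 0.227 to 5.10 CPM, from 13.0 to 79.4 CPM and from 3.56 to 17.8 CPM.

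NRG1, the neuregulin that binds ERBB3, showed the largest log2 fold change in size among the 10 genes. NRG1 (ENSG00000157168, on chromosome 8 of GRCh38) had 836 and 1094 counts in controls, or 63.3 and 60.6 CPM, against 1948 and 2426 counts with USP12, or 140 and 168 CPM. Both USP12 libraries were higher than both controls, and the lowest USP12 library was 2.22-fold above the highest control. The fitted log2 difference was 1.32 (approximate standard error, SE, 0.35, edgeR quasi-likelihood adjusted p = 0.352), a fold of 2.49. The difference between the control libraries was 0.06 on the log2 scale, and only 3.95% of the tested genes differed between the controls by as little or less. The adjusted p of NRG1 over all alternatives ranged from 0.0100 to 1.

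The NRG1 difference did not rest on the choice of control library. On the log2 scale the change was 1.31 against control replicate 1 alone and 1.35 against control replicate 2 alone (adjusted p = 0.0100 and 0.0152 from the quasi-likelihood test, in fits that assume the lone control varies like the USP12 libraries). Of the 10 genes, NRG1 alone had an adjusted p under 0.05 in both of these fits, which share the USP12 libraries. Over the 15560 genes tested in both, 4.11% passed in both and in 1 direction. Against control replicate 2 alone, EREG, TGFA and ERRFI1 were also lower, where 5.74% of all genes were lower, 4.73% higher and 10.5% either. Against control replicate 1 alone, ERBB2 and ERBB3 were lower and BTC was higher, where 16.3% of all genes were lower, 15.9% higher and 32.2% either. With a USP12 library left out, the value was 1.45 without replicate 1 and 1.18 without replicate 2, and the adjusted p was 1 in both fits, in which none of the 10 genes passed and 0.248% and 0.273% of all genes did. The genes whose profile over the 4 libraries was most like that of NRG1, by Euclidean distance between centred log2 CPM, were CDC42EP3 (0.106), E2F3 (0.109) and ARHGAP10 (0.124).

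ERBB3, the receptor for NRG1, was lower in the USP12 libraries. ERBB3 (ENSG00000065361, chromosome 12 of GRCh38, 56076799 to 56103505, plus strand) had 290 and 305 counts in controls, or 21.9 and 16.9 CPM, against 141 and 109 counts with USP12, or 10.1 and 7.55 CPM. The groups did not overlap, and the lowest control was 1.67-fold above the highest USP12 library. The log2 fold change was -1.13 (SE 0.46, quasi-likelihood adjusted p = 0.655), and the level in control cells was 2.19-fold that in USP12 cells. It was -1.28 against control replicate 1 alone and -0.93 against control replicate 2 alone (adjusted p = 0.0233 and 0.0985 from the same test), and the adjusted p over all alternatives ranged from 0.0233 to 1. The summed level of the epithelial markers, mostly KRT8 and KRT18, was lower in the same libraries, and its part in the difference of ERBB3 was not tested. In bulk RNA, fewer cells that express a gene and less RNA of it per cell cannot be told apart.

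ERBB2, the ligandless partner, had its highest level in control replicate 1. ERBB2 (ENSG00000141736, chromosome 17, 39687914 to 39730426, plus strand) had 203 and 101 CPM in controls, against 99.7 and 86.9 CPM with USP12. Control replicate 1 was high, and the other 3 libraries were close to each other. Control replicate 2 and USP12 replicate 1 could not be told apart by counting error alone, with 95% Poisson intervals of 96.2 to 106 CPM and 94.5 to 105 CPM. The fitted log2 difference was -0.71 (SE 0.45, quasi-likelihood adjusted p = 0.864). It was -1.10 against control replicate 1 alone and -0.11 against control replicate 2 alone, so the size of the difference was set by control replicate 1. The epithelial marker sum, mostly KRT8 and KRT18, was also highest in that library, and its part in the difference of ERBB2 was not tested. MIEN1 lies over the 3' part of ERBB2 on the opposite strand and had 1402 and 1224 counts in controls, against 583 and 559 with USP12. PGAP3 lies over the 5' part, also on the opposite strand, and had 275 and 325 counts in controls, against 403 and 333 with USP12. Whether counting used strand is not given in the sources used here, so fragments from the overlaps cannot be assigned with certainty.

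EGFR, the receptor for most of the ligands in the set, was slightly higher in the USP12 libraries. EGFR (ENSG00000146648, chromosome 7, 55019017 to 55211628, plus strand) had 127 and 131 CPM in controls, against 146 and 205 CPM with USP12. The groups did not overlap, but the USP12 libraries differed from each other more than the nearest USP12 and control libraries did. On the log2 scale the change was 0.45 (SE 0.36, quasi-likelihood adjusted p = 0.909). The estimate was positive in every alternative that was run, from 0.19 without USP12 replicate 2 to 0.69 without USP12 replicate 1. The genes with the closest profiles were SNRPEP4 (distance 0.073), CAB39L (0.079) and CDRT1 (0.106), all at levels under 10 CPM, where counting error is large.

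Ratios of receptor counts within a library do not depend on the scaling between libraries. They were formed after the values had been seen and are given as a description. The count of EGFR was 0.622 and 1.295 times that of ERBB2 in controls, against 1.47 and 2.36 times with USP12. Relative to ERBB3, EGFR had 5.77 and 7.73 times the counts in controls, against 14.4 and 27.2 times with USP12. NRG1 had 2.88 and 3.59 times the counts of ERBB3 in controls, against 13.8 and 22.3 times with USP12. ERBB2 had 9.27 and 5.96 times the counts of ERBB3 in controls, against 9.82 and 11.5 times with USP12. All 4 ratios were higher in both USP12 libraries than in both controls, and for ERBB2 to ERBB3 the nearest libraries were close.

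ERRFI1, the inhibitor of EGFR also called MIG6, is itself induced by receptor signalling in many cells. ERRFI1 (ENSG00000116285, chromosome 1, 8004404 to 8026309, minus strand) had 119 and 155 CPM in controls, against 91.1 and 85.8 CPM with USP12. Both USP12 libraries were lower than both controls, and the lowest control was 1.31-fold above the highest USP12 library. The log2 fold change was -0.63 (SE 0.35, quasi-likelihood adjusted p = 0.834). It was -0.40 against control replicate 1 alone and -0.80 against control replicate 2 alone (adjusted p = 0.145 and 0.0445 from the same test), within a range from 0.0445 to 1 over all alternatives.

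**Figure D2:**
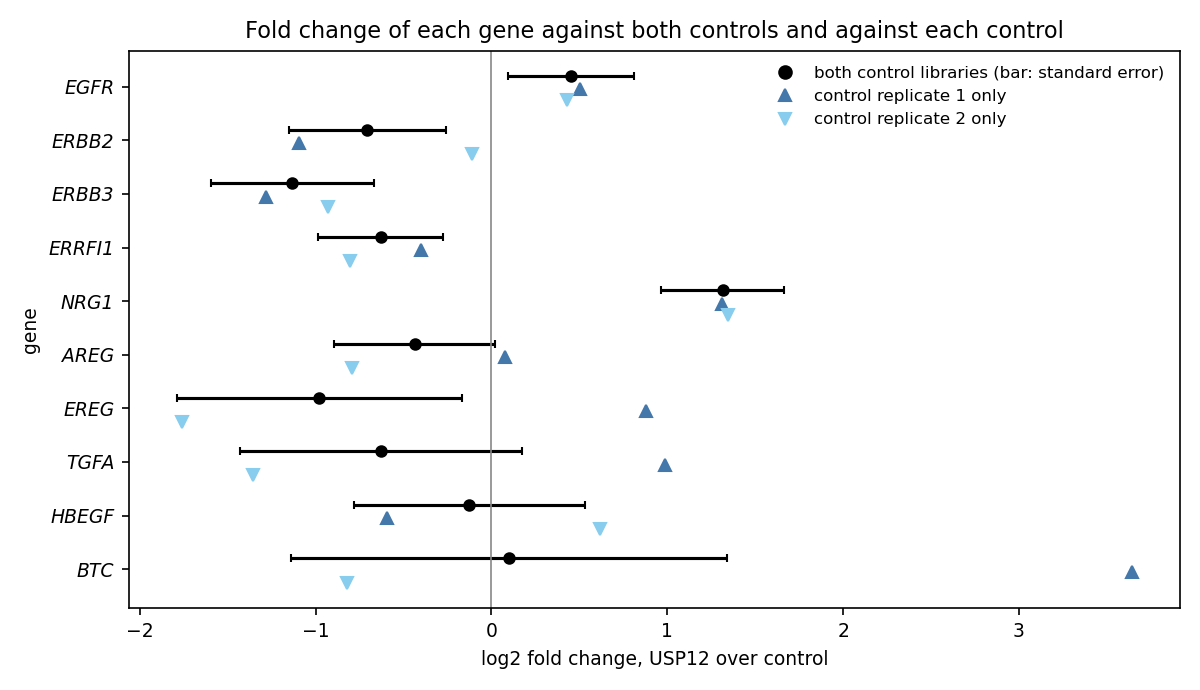
Log2 fold change of USP12 over control for each gene (x axis), from both controls (black circle, bar for the standard error), from control replicate 1 only (upward triangle) and from control replicate 2 only (downward triangle). The triangles of NRG1, EGFR, ERBB3, ERBB2 and ERRFI1 fall on the same side of 0, while those of AREG, EREG, TGFA, HBEGF and BTC fall on opposite sides.

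The ligands of EGFR differed between the control libraries, and none separated the groups. Epiregulin (EREG), which also binds ERBB4, and TGFA, an autocrine growth factor of many carcinomas, were clear examples. EREG (ENSG00000124882, chromosome 4, 74365145 to 74388749, plus strand) had 172 and 1433 counts in controls, or 13.0 and 79.4 CPM, against 20.9 and 26.0 CPM with USP12. Control replicate 2 was 6.10-fold above control replicate 1, and both USP12 libraries lay between them. The fitted log2 difference was -0.98 (SE 0.81, quasi-likelihood adjusted p = 0.914). It was 0.88 against control replicate 1 alone and -1.76 against control replicate 2 alone (adjusted p = 0.0534 and 0.00570 from the same test), opposite in sign. The adjusted p of EREG over all alternatives ranged from 0.00570 to 1.

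TGFA (ENSG00000163235, chromosome 2, 70447284 to 70554193, minus strand) had 47 and 321 counts in controls, or 3.56 and 17.8 CPM, against 5.47 and 8.38 CPM with USP12. The USP12 libraries again lay between the controls, which were 5-fold apart. On the log2 scale the change was -0.63 (SE 0.80, quasi-likelihood adjusted p = 0.947), and it changed sign with the control used, from 0.99 against control replicate 1 to -1.36 against control replicate 2. Amphiregulin (AREG, ENSG00000109321, chromosome 4, 74445136 to 74455005, plus strand), a ligand of low affinity for EGFR, had 26.0 and 46.6 CPM in controls, against 27.4 and 26.4 CPM with USP12. Control replicate 2 was high, and the other 3 libraries lay close together. The log2 fold change of AREG was -0.44 (SE 0.46, quasi-likelihood adjusted p = 0.940).

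HBEGF and BTC were low throughout. HBEGF (ENSG00000113070, chromosome 5, 140332843 to 140346603, minus strand), the heparin-binding ligand that also serves as the diphtheria toxin receptor, had 71 and 41 counts in controls, against 44 and 55 with USP12, or 5.37, 2.27, 3.17 and 3.81 CPM. The USP12 libraries lay between the controls, with control replicate 1 the higher, the reverse of EREG, TGFA, AREG and BTC. Its log2 fold change was -0.13 (SE 0.66, quasi-likelihood adjusted p = 0.985). Betacellulin (BTC, ENSG00000174808, chromosome 4, 74744759 to 74794523, minus strand) had 3 and 92 counts in controls, against 57 and 24 with USP12, or 0.227, 5.10, 4.10 and 1.66 CPM. The 3 counts in control replicate 1 have a 95% Poisson interval of 0.0468 to 0.663 CPM, below every other library. The difference between the control libraries was at least as large as in 99.1% of the tested genes for BTC, 95.2% for EREG and 92.5% for TGFA. For HBEGF and AREG the shares were lower, at 65.6% and 47.5%. The log2 fold change of BTC was 0.10 (SE 1.24, quasi-likelihood adjusted p = 0.993). It rested on the control used, with 3.64 against control replicate 1 alone and -0.82 against control replicate 2 alone.

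EREG, AREG and BTC lie in 1 stretch of chromosome 4, with 56.4 kb between EREG and AREG and 290 kb between AREG and BTC. All 3 were higher in control replicate 2 than in control replicate 1. TGFA, on chromosome 2, had the same order. For AREG, 47.5% of the tested genes differed between the controls by as much or less. The share of all genes with this order was not counted. The promoters of the 3 neighbours are shown for description, as the 250 bases before the RefSeq start (GRCh38.p14, written 5′ to 3′ on the strand of the gene). Capitals mark matches on either strand to TGACGTCA (the cAMP response element), TGANTCA (AP-1), GGGCGG (the GC box), TATAAA (the TATA box) and CACGTG (the E-box).
AREG, chr4:74444886-74445135, plus strand: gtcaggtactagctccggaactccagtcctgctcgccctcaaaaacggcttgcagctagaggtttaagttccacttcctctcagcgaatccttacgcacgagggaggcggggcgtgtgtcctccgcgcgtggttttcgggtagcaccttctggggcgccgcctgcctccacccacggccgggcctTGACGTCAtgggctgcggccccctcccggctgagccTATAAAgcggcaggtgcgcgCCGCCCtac
EREG, chr4:74364895-74365144, plus strand: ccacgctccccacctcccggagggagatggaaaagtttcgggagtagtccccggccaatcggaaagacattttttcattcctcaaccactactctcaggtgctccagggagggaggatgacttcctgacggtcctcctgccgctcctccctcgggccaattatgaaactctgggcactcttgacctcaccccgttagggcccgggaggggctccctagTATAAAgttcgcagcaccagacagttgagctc
BTC, chr4:74794524-74794773, minus strand: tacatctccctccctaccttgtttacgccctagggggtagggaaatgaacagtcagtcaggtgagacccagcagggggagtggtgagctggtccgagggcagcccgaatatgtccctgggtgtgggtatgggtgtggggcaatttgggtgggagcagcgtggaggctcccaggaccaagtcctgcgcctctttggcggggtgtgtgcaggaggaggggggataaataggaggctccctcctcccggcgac

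The AREG window held a cAMP response element that begins 65 bases before the start, a TATA box at 29 and a GC box at 9. EREG held a TATA box at 32, and BTC held none of the 5 motifs. Of 35116 RefSeq promoters cut to the same 250 bases, 1.65% held the cAMP response element, 10.7% the TATA box, 42.6% the GC box, 6.57% the AP-1 motif and 6.34% the E-box. The table had entries for 8 of the 10 genes, without ERBB3 and NRG1. Matches of letters say nothing of binding in these cells.

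Divided by exon length (CPM per kb over all annotated exons of a gene, which understates genes with many isoforms such as NRG1), ERRFI1 and AREG had the highest levels in both groups. In control cells the mean level was 32.7 ± 6 for ERRFI1, 22.1 ± 8.86 for AREG, 14.7 ± 7.03 for ERBB2, 8.09 ± 8.22 for EREG and 8.06 ± 0.18 for EGFR (CPM per kb, SD, n = 2). Below these, NRG1 was at 2.90 ± 0.087, TGFA at 2.17 ± 2.05, ERBB3 at 1.66 ± 0.305, HBEGF at 1.28 ± 0.733 and BTC at 1.00 ± 1.3 CPM per kb (SD, n = 2). Of neighbours in this order, only ERRFI1 and AREG, and EGFR and NRG1, did not overlap between the control libraries. In USP12 cells the order was ERRFI1 (21.2 ± 0.884), AREG (16.4 ± 0.417), EGFR (11.0 ± 2.60), ERBB2 (9.04 ± 0.880), NRG1 (7.21 ± 0.920), EREG (4.11 ± 0.640), TGFA (1.41 ± 0.419), HBEGF (1.17 ± 0.152), BTC (1.09 ± 0.651) and ERBB3 (0.756 ± 0.157), in CPM per kb. There EGFR and ERBB2 overlapped, as did TGFA, HBEGF and BTC each with the next gene.

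Among the ligands, NRG1 made up 12.5% and 5.52% of the summed CPM per kb in controls and 21.4% and 24.5% in the USP12 libraries. AREG was the largest share in all 4 libraries, with 66.9% and 55.2% in controls and 54.5% and 50.1% in the USP12 libraries. The order of AREG and NRG1 rested on the division by exon length. Before it, NRG1 had 2.43 and 1.301 times the counts of AREG in controls, against 5.126 and 6.367 times with USP12. EREG took 27% in control replicate 2 and from 9.61% to 14.2% in the other libraries. Among the receptors, EGFR made up 26.9% and 42.2% in controls and 46.6% and 58.7% in the USP12 libraries, while ERBB3 made up 6.35% and 7.44% in controls and 4.4% and 2.94% with USP12. The ligand sum was highest in control replicate 2 (51.4 CPM per kb) and the receptor sum in control replicate 1 (29.5 CPM per kb).

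**Figure D3:**
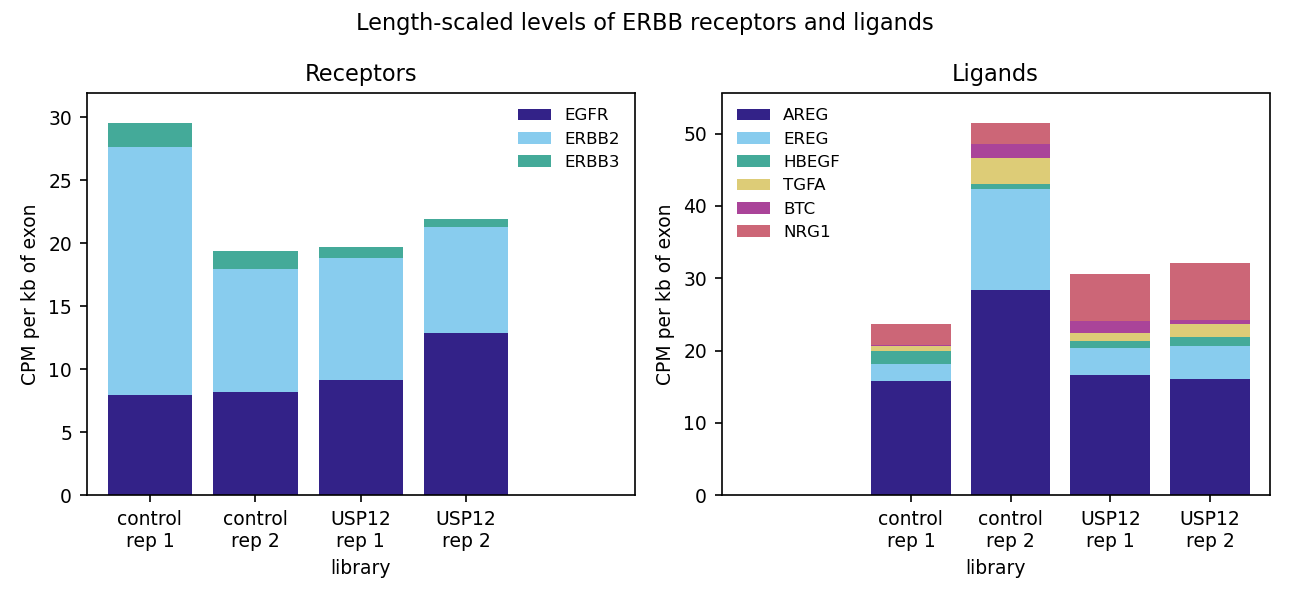
Stacked levels of the receptors (left) and ligands (right) in CPM per kb of exon for each library. Each control library differs from the remaining libraries in 1 panel: control replicate 1 is high for receptors at 29.5 and control replicate 2 is high for ligands at 51.4, and the NRG1 segment is larger in both USP12 libraries.

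Of the rest of the family, only NRG2 and NRG4 passed the filter on low counts. ERBB4, the other neuregulin receptor, and EPGN, which lies in the same ligand cluster, had 0 counts in all 4 libraries, which allows a level of up to 0.166 to 0.227 CPM. EGF had 9 and 15 counts in controls, against 1 and 3 with USP12, and it was not tested, like NRG3 and TDGF1. NRG2 did not separate the groups, with 168 and 139 counts in controls, against 136 and 141 with USP12. NRG4, a neuregulin that binds ERBB4, had 115 and 474 counts in controls, or 8.70 and 26.3 CPM, against 16 and 19 counts with USP12, or 1.15 and 1.32 CPM. Both USP12 libraries were far below both controls, and the log2 fold change was -3.82 (SE 0.73, quasi-likelihood adjusted p = 0.221). NRG4 had an adjusted p of 0.000591 in edgeR's exact test, 2.65e-05 in the DESeq2 Wald test and 0.000231 with the replicate number as a block, in a range from 2.65e-05 to 0.743 over its alternatives.

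By the size criterion, the ligand shedding list (9 genes, all tested) had 1 gene higher and 0 lower, where 2.92% and 4.41% of all tested genes were. The median log2 fold change of the list was -0.13. The higher gene was ADAM12, a metalloprotease reported to release EGF-family ligands, with 28 and 78 counts in controls, against 186 and 202 with USP12. Its log2 fold change was 2.08 (SE 0.57, quasi-likelihood adjusted p = 0.357). ADAM17, the main sheddase of AREG and TGFA, had 487 and 1125 counts in controls, against 665 and 745 with USP12, a log2 fold change of 0.00 (SE 0.42). ADAM10, which releases BTC, had a log2 fold change of -0.38 (SE 0.39). The 8 genes of the list other than ADAM12 all overlapped between groups, where 36.5% of all tested genes did not.

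The median of the 18 receptor adaptors and proximal effectors tested was -0.10. By the criterion, 1 was lower and 0 were higher, where 4.41% and 2.92% of all tested genes were. The lower gene was GRB2, the adaptor that links the receptors to the RAS exchange factor SOS, with 3003 and 2858 counts in controls, against 1194 and 1316 with USP12, or 227, 158, 85.9 and 91.2 CPM. The log2 fold change of GRB2 was -1.12 (SE 0.37, quasi-likelihood adjusted p = 0.484). In this list 4 genes were lower and 3 higher without overlap between groups, where 17% and 19.5% of all tested genes were. Of these, PLCG1 and CRK were higher (0.68 and 0.61), while PIK3R2 and NCK1 were lower (-0.71 and -0.73), all with adjusted p over 0.8 in the quasi-likelihood test. Of the 18 genes tested among 19 for receptor turnover and inhibition, 0 met the criterion in either direction and the median was 0.03. The smallest p was that of LRIG3, a transmembrane protein of the LRIG family, with 3.41 and 8.37 CPM in controls, against 9.14 and 13.2 CPM with USP12 (log2 fold change 0.92, SE 0.61, quasi-likelihood adjusted p = 0.870). CBLC, a ubiquitin ligase of the CBL family, was not tested, with 24, 1, 0 and 0 counts.

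The genes that respond to ERK split in direction. Of 15 tested, 1 was higher and 0 were lower by the criterion, where 2.92% and 4.41% of all tested genes were. The median of the list was -0.02. PHLDA1 had 200 and 155 CPM in controls, against 402 and 384 CPM with USP12, a log2 fold change of 1.15 (SE 0.34, quasi-likelihood adjusted p = 0.422). In 6 of the 15 genes the USP12 libraries were below both controls without overlap (DUSP5, DUSP6, EGR1, ETV4, FOSL1 and IER3), where 17% of all tested genes did so, and PHLDA1 was the only gene above. DUSP6, the ERK phosphatase, had 430 and 690 counts in controls, against 371 and 361 with USP12 (log2 fold change -0.45, SE 0.40), and DUSP4 did not separate the groups (0.07, SE 0.31). SPRED1, SPRED2, SPRY4, ETV1 and ETV5 had the order seen in EREG, with control replicate 2 above and control replicate 1 below both USP12 libraries. DUSP4 and SPRED3 had the reverse order, and SPRED3 had 20.8 and 1.44 CPM in controls, against 11.0 and 13.9 CPM with USP12.

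**Figure D4:**
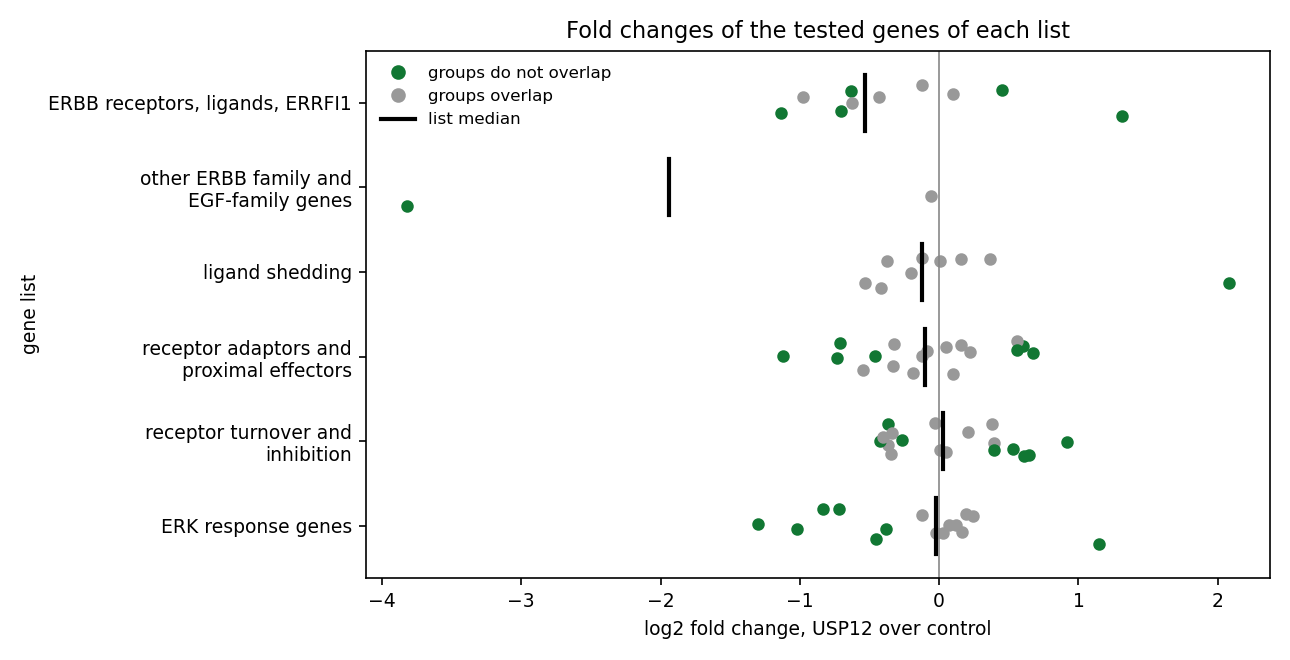
Log2 fold change of USP12 over control for each tested gene of the 6 lists (x axis), in green where the groups do not overlap and grey where they do, with the list median as a black bar. The medians lie between -0.53 and 0.03 apart from the list of 2 tested family genes, whose left point is NRG4 at -3.82.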

How the data were processed

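RNA-seq of A549 cells gave 4 libraries, grouped by their labels as control (2) and USP12 (2). The authors prepared stranded mRNA libraries, trimmed reads with Seqtk, aligned them to GRCh38 with Hisat2 2.0.4 and counted uniquely mapped fragments with Stringtie 1.3.0. The deposited values are raw counts per gene, without normalization. The annotation release and strand setting are not given in the sources used here.

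Counts were filtered with filterByExpr (15222 of 50868 genes kept), scaled by TMM and compared with the quasi-likelihood test of edgeR 4.0.16 (R 4.3.3, no covariate, legacy = TRUE, Benjamini-Hochberg over all genes tested). Approximate standard errors were taken as log2 fold change over the root of F. Log2 CPM used a prior count of 2. Alternatives were DESeq2 1.42.0 (size factors or Wald test), no filter, at least 10 counts in every library, the exact test, the replicate block and leaving out each library. The test was tried on simulated counts. Positions and exon lengths came from GENCODE release 44 (99.2% of tested genes matched), and promoters from RefSeq. The genes and lists were chosen with earlier results of these data known. The criterion of the study for lower genes (p and log2 fold change) was applied to the unadjusted p and extended here to higher genes. Named list genes met it without overlap between groups, or had the smallest p of their list where none did, and the 3 closest profiles were named for EGFR and for the gene of largest change. Other genes were named after their values were seen.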

Additional observations from a re-analysis of the deposited data

How the results depend on the processing

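No gene of the 10 changed its side of the adjusted p threshold of 0.05 under DESeq2's size factors, either low-count filter, the DESeq2 Wald test, the exact test or the replicate block. BTC was removed by the minimum of 10 counts. By the size criterion, ERBB3 did not pass without a filter, with the minimum of 10 counts or under the replicate block. With 1 library left out, the log2 fold change stayed on one side of 0 for USP12 (5.85 to 7.06), NRG1 (1.18 to 1.45), EGFR (0.19 to 0.69), ERBB3 (-1.35 to -0.93), ERBB2 (-1.10 to -0.11) and ERRFI1 (-0.80 to -0.40). It crossed 0 for AREG (-0.79 to 0.07), EREG (-1.76 to 0.88), TGFA (-1.36 to 0.99), HBEGF (-0.59 to 0.62) and BTC (-0.82 to 3.64). Without control replicate 1, 4 of the 10 genes had an adjusted p under 0.05 (EREG, TGFA and ERRFI1 lower, NRG1 higher; 10.5% of all genes), and without control replicate 2 also 4 (ERBB2 and ERBB3 lower, NRG1 and BTC higher; 32.2% of all genes). The reversed values were 0.0745 for AREG, 0.88 for EREG and 0.99 for TGFA without control replicate 2, 0.62 for HBEGF and -0.82 for BTC without control replicate 1, and 0.02 for HBEGF and -0.68 for BTC without USP12 replicate 1. The cause was not tested.

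USP12 (6.32, adjusted p = 0.0975) passed 0.05 without a filter (6.33), by DESeq2's Wald test (6.31), in the exact test (6.32) and under the replicate block (6.43). Genes called at an adjusted p under 0.05 went from 0 lower and 0 higher (1155 at an unadjusted p under 0.05) to 361 and 167 without a filter, 273 and 133 by DESeq2's Wald test, 262 and 167 in the exact test, 251 and 153 under the replicate block, and from 28 to 2612 lower and 12 to 2550 higher with 1 library left out. By the size criterion in both directions, 671 lower and 445 higher became 1173 and 688 without a filter, and 300 to 2134 and 159 to 2495 with 1 library left out. Over the 5 pathway lists, 2 lower and 2 higher genes became 4 lower without a filter and 4 lower by DESeq2's Wald test, and 1 to 6 lower and 0 to 12 higher with 1 library left out.

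The groups share replicate numbers 1 and 2, but no source says that a number marks a shared culture or day, and same-numbered libraries shared little of their deviation (r = 0.152 over genes). Under the replicate block, NRG1 was 1.31, ERBB3 -1.14, EREG -0.48, TGFA -0.26 and BTC 0.90. The prior degrees of freedom of that fit, and of the fits without a filter or without a USP12 library, were infinite, so their calls use no spread of the single gene.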
